A study of Mus musculus with 5 samples.

Results

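Enteroendocrine cells (EECs) store hormones and serotonin in vesicles and release them when calcium enters the cell. The proteins that do this are largely those of the nerve terminal. SNARE proteins on the vesicle and the plasma membrane pull the membranes together, calcium sensors of the synaptotagmin family trigger fusion, Rab GTPases bring vesicles to the membrane, and priming and scaffold proteins make docked vesicles ready for release. A fixed list of 48 genes of this machinery was examined in sorted cells of the mouse small intestine. The list was chosen with earlier results of these data known. The genes are given by name, with no threshold on their values, and all 48 were found among the 22042 genes of the bulk RNA-Seq table and again in the droplet data. They fall into 7 roles, which are SNARE proteins (8 genes), SNARE regulators and disassembly proteins (6), synaptotagmins and a related calcium sensor (8), Rab GTPases and their effectors (9), vesicle membrane proteins (5), priming proteins (4) and active zone scaffold proteins (8).

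Bulk RNA-Seq covered 12 libraries of sorted cells from Cck-Cre; R26-LSL-tdTomato mice (6 to 8 weeks old, C57Bl/6J), which were either fasted overnight or fasted and then given Ensure, a liquid diet. In each of 3 fasted and 3 refed mice, tdTomato+ epithelial cells (called CCK+) and tdTomato- epithelial cells (called CCK-) were collected, giving 4 groups of 3 libraries. All of these mice, controls included, carried both the Cre driver and the reporter. Because recombination is permanent, CCK+ cells are those that expressed the Cre driver at any time and not only those with Cck mRNA when sorted, and CCK- cells are all other sorted epithelial cells. The public titles of all 4 groups name CCK+ cells, so the populations were taken from the cell type labels, and the hormone levels below bear on those labels. Single-cell RNA-Seq was 1 droplet library of tdTomato+ cells from 4 pooled Neurog3-Cre; R26-LSL-tdTomato mice (6 weeks old), in which every descendant of an EEC progenitor is labelled. With 1 library the droplet data have no replicate, so they are described without a test.

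Cck was at 14840 to 32590 normalized counts in the 6 CCK+ libraries and at 27.6 to 86.0 in the 6 CCK- libraries, and Tph1, the enzyme of serotonin synthesis, was at 4994 to 21360 and 100.2 to 222. All 9 EEC markers were higher in CCK+ libraries, with sums of 63970 to 235200 against 1286 to 2683. The CCK+ fasted library of mouse 2 had the lowest EEC sum of its population and the highest sum of 8 enterocyte markers, at 349100 against 143200 to 251100 in the other CCK+ libraries. All 9 immune markers were also higher in CCK+ libraries, with sums of 4279 to 9995 against 458 to 1098, and the immune defining markers Ptprc and Cd3e were called higher among them. Their part in the results was not tested. Of 9 listed neuron markers 3 were higher (Ret, Elavl3 and Elavl4) and the sums were 324 to 716 against 34.9 to 60.6, mostly from Ret at 279 to 679 in CCK+ libraries. Prph, an intermediate filament of peripheral neurons and a defining marker of the list, was at or near 0, at 0 to 9.19 over all 12 libraries. Of the enterocyte markers 6 of 8 were lower in CCK+ libraries, and 3 of 5 cycling and crypt markers (Mki67, Olfm4 and Hmgb2) were higher, with sums of 1439 to 3848 against 933 to 2346. Of 3 listed enteric glia markers 2 were higher, at low sums of 3.92 to 22.6 against 1.23 to 12.4. Of 8 goblet markers 1 was higher and 2 were lower, and no Paneth, tuft or stromal marker was called. The part of these lists in the results was not tested either.

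Promoter sequences were looked at because several of these genes are shared with neurons, because the repressor REST silences many neuronal genes in other cell types, and because NEUROD1, a transcription factor of EEC differentiation, binds E-boxes. RefSeq (GRCm38.p6) gave a promoter for 37 of the 48 genes. In the 250 bases before the start, on either strand, the left part of the REST motif, TTCAGCACC, was present in 2 of these 37 genes (Syn1 and Ppfia3) and in 0.348% of 27025 genes. The NEUROD1-type E-box CAGATG was present in 3 (Syn2, Rimbp2 and Pclo) against 16.3% of all genes, the E-box CAGCTG in 10 against 14.7%, the cyclic AMP element TGACGTCA in 1 (Syn1) against 1.77% and the GC box GGGCGG in 24 against 35.4%. No motif of this list contains another, and a match is only a description of the letters. The promoters of 3 genes are shown. Syn1 and Ppfia3 are the 2 genes that hold the REST part, and Pclo holds the E-box and is among the genes with a large bulk difference. Each is written 5′ to 3′ on the gene's strand with the motif in capitals, TTCAGCACC in Syn1 and Ppfia3 and CATCTG, the reverse complement of CAGATG, in Pclo. The Syn1 window was chrX:20920919-20921168 on the minus strand with its motif 223 bases before the start. That of Ppfia3 was chr7:45367020-45367269 on the minus strand with its motif 37 bases before the start. That of Pclo was chr5:14514668-14514905 on the plus strand. The Pclo window is shown at 238 bases, since bases within the RefSeq span of the gene were left out. Its motif was 113 bases before the start as counted to the end of the uncut 250 bases. All windows as shown are upstream of the annotated transcripts of their genes.
Syn1: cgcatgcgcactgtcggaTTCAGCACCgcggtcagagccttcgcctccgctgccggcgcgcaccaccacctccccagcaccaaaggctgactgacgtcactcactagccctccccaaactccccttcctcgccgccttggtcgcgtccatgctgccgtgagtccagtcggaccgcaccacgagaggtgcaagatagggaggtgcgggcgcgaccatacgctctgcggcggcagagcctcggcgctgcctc
Ppfia3: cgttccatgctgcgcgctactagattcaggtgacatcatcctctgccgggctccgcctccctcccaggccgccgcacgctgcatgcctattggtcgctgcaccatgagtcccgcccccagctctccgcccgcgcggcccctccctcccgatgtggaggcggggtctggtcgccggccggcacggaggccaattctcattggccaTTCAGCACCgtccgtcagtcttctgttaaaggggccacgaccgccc
Pclo: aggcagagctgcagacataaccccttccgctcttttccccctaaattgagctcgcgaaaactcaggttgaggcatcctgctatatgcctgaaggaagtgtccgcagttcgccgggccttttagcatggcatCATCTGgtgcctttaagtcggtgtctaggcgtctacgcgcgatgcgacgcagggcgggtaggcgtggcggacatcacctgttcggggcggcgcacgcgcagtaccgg

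The comparison of CCK+ with CCK- cells asks which parts of the release machinery were more abundant in the tdTomato+ sort. That sort held immune and enterocyte markers beside those of EECs, so a difference is one between sorted populations. Of the 48 genes, 29 were higher in CCK+ cells, 1 was lower (Vamp3) and 18 were not called, at an adjusted p under 0.05 in limma over all genes. Over all 22042 genes 19.6% were called higher and 14.1% lower, so that the share of this list called higher, 60.4%, was above the share of all genes. The median log2 difference was 2.07 over the 48 genes and 0.09 over all genes. Because the list was chosen with earlier results of these data known, these shares and medians describe the list and test nothing. Of the 29 genes, 27 were at least 2-fold higher. In 26 of the 48 genes every CCK+ library lay above every CCK- library, as did 9.74% of all genes, and in 1 every CCK+ library lay below, as did 5.93%. With quantile normalization the split was 28 higher and 5 lower, and the median log2 difference of all genes was -0.14. The share of all genes called with quantile normalization is not given here, so the split cannot be set beside it. In bulk samples fewer cells of a type and less RNA per cell cannot be told apart. Fold changes here are on the scale of log2(normalized count + 1), which understates the change of low genes, and the adjusted p-values are from limma.

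**Figure D1:**
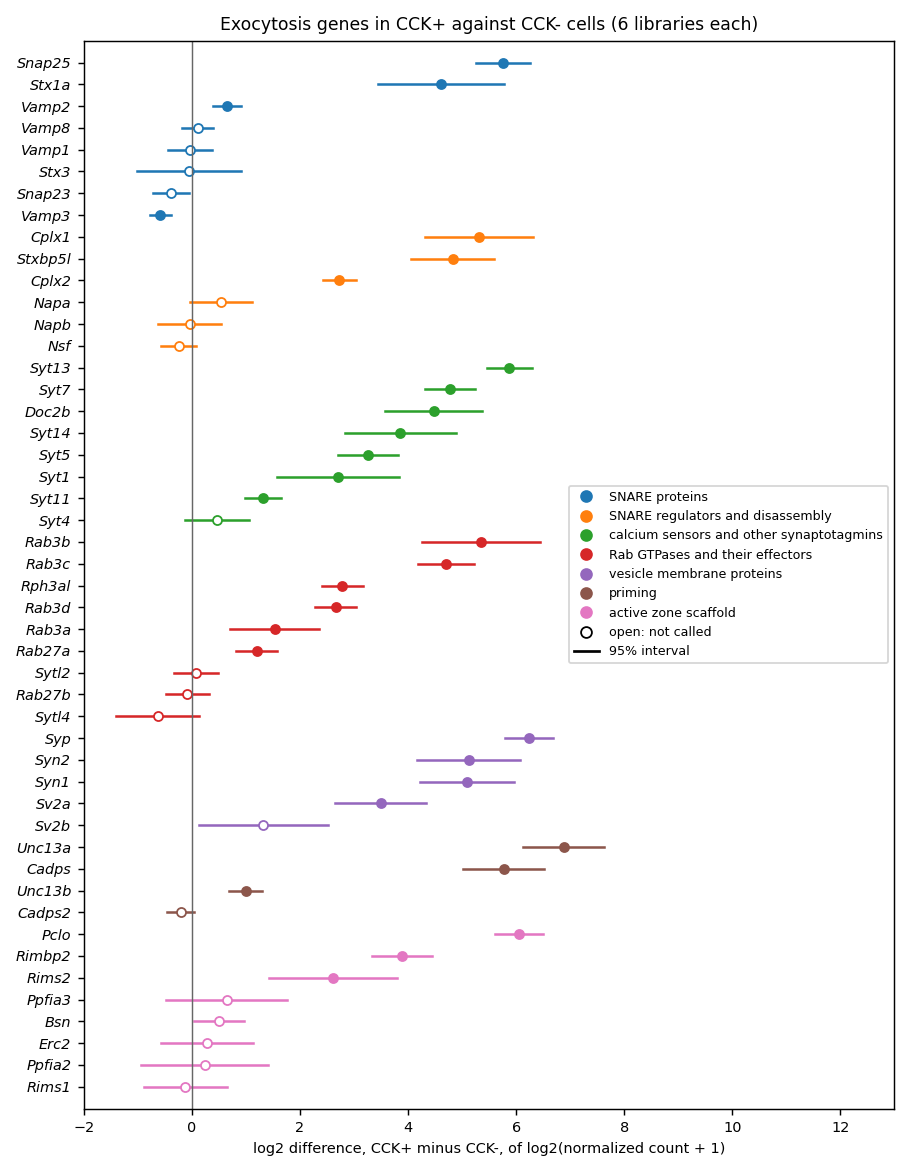
Log2 difference of each of the 48 genes between CCK+ and CCK- cells (6 libraries each, horizontal axis, log2 of the normalized count plus 1), with 95% intervals, ordered by role and coloured by role; filled points passed an adjusted p of 0.05. The 29 filled points to the right of 0 reach from 0.65 for Vamp2 to 6.88 for Unc13a, and Vamp3 at -0.59 is the 1 filled point to the left.

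Among the 8 SNARE proteins, 3 were higher and 1 was lower in CCK+ cells. Snap25 (ENSMUSG00000027273, chr2:136713439-136782428 in GRCm38), the plasma membrane SNARE of regulated secretion, was at 2363, 909 and 1442 in the CCK+ fasted libraries of mice 1, 2 and 3, 2174, 3133 and 3001 in the CCK+ refed, 37.04, 23.7 and 40.3 in the CCK- fasted and 26.6, 46.8 and 48.7 in the CCK- refed libraries. Every CCK+ library was above every CCK- library, and the fold was 54.04 (log2 difference 5.76, SE 0.23, adjusted p = 3.87e-10). Stx1a, the syntaxin that pairs with it, was at 57.4, 34.6 and 28.4 in the CCK+ fasted libraries of mice 1, 2 and 3, 25.3, 70.95 and 63.8 in the CCK+ refed, 2.15, 0 and 0 in the CCK- fasted and 0, 0.6 and 6.00 in the CCK- refed libraries. The groups did not overlap, though CCK- libraries were near 0 (fold 24.4, log2 difference 4.61, SE 0.54, adjusted p = 1.41e-05). Vamp2, the vesicle SNARE of neurons, was at 624, 469 and 618 in the CCK+ fasted libraries of mice 1, 2 and 3, 499.9, 586 and 463 in the CCK+ refed, 304, 365 and 394 in the CCK- fasted and 309, 368 and 332 in the CCK- refed libraries. Its groups did not overlap either, but the difference was small (fold 1.57, log2 difference 0.65, SE 0.12, adjusted p = 7.16e-04). Vamp3, a vesicle SNARE of most cell types, went the other way, at 913, 1014 and 1014 in the CCK+ fasted libraries of mice 1, 2 and 3, 962, 971 and 1003 in the CCK+ refed, 1602, 1430 and 1531 in the CCK- fasted and 1561, 1380 and 1351 in the CCK- refed libraries. All 6 CCK+ libraries were below all 6 CCK- libraries (fold 0.665, log2 difference -0.59, SE 0.09, adjusted p = 1.34e-04). The call of Vamp3 was lost when libraries were scaled to the same sum, where the log2 difference was -0.19.

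The other 4 SNARE genes were not called and their groups overlapped. Snap23, the widely expressed relative of Snap25, was at 437 to 962 in CCK+ and 636 to 804 in CCK- libraries (log2 difference -0.39, SE 0.15, adjusted p = 0.0626), and with mouse as a block it was called lower (adjusted p = 0.0371). Vamp8, a vesicle SNARE of exocrine and immune secretion, was at 370.3 to 676 in CCK+ and 345 to 713 in CCK- libraries, and Vamp1 was at 88.8 to 175 in CCK+ and 104 to 166 in CCK- libraries. Stx3, a syntaxin of the apical membrane, ranged from 184 to 2224 in CCK+ and from 468 to 2548 in CCK- libraries.

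Of the 6 SNARE regulators and disassembly proteins, the 3 regulators were higher and the 3 disassembly proteins were not called. Cplx1, a complexin, which binds the assembled SNARE complex, was at 71.8, 26.7 and 40.2 in the CCK+ fasted libraries of mice 1, 2 and 3, 92.9, 111 and 101 in the CCK+ refed, 0, 0 and 1.12 in the CCK- fasted and 0, 0.926 and 4.47 in the CCK- refed libraries. It was near 0 in CCK- cells and clearly present in all CCK+ libraries (fold 39.8, log2 difference 5.32, SE 0.46, adjusted p = 8.16e-07). Cplx2, its relative, was at 1413, 796 and 889 in the CCK+ fasted libraries of mice 1, 2 and 3, 1071, 1132 and 986 in the CCK+ refed, 144, 181 and 183 in the CCK- fasted and 156, 142 and 129.7 in the CCK- refed libraries, so that CCK- cells also held a measurable level (fold 6.62, log2 difference 2.73, SE 0.14, adjusted p = 5.50e-09). Stxbp5l, or tomosyn-2, which holds SNAREs back from fusion, was at 928, 166 and 525 in the CCK+ fasted libraries of mice 1, 2 and 3, 724, 1507 and 1398 in the CCK+ refed, 18.8, 13.4 and 26.3 in the CCK- fasted and 22.6, 47.2 and 26.0 in the CCK- refed libraries. It varied among CCK+ libraries more than Cplx2 did but did not overlap with CCK- cells (fold 28.4, log2 difference 4.83, SE 0.36, adjusted p = 1.77e-07). Nsf, the ATPase that takes spent SNARE complexes apart, was at 435 to 816 in CCK+ and 624 to 864 in CCK- libraries. Its adaptors overlapped as well, with Napa at 204 to 501 in CCK+ and 123 to 428 in CCK- libraries and Napb at 20.6 to 41.8 in CCK+ and 16.8 to 38.1 in CCK- libraries. With mouse as a block Napa was called higher (log2 difference 0.53, adjusted p = 0.00395).

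Of the 8 calcium sensors and other synaptotagmins, 7 were higher in CCK+ cells. Syt7 (ENSMUSG00000024743, chr19:10388802-10453181), a sensor of high calcium affinity used in hormone secretion, was at 2302, 759.6 and 1580 in the CCK+ fasted libraries of mice 1, 2 and 3, 1913, 2836 and 3047 in the CCK+ refed, 59.3, 64.9 and 75.3 in the CCK- fasted and 68.8, 65.98 and 76.8 in the CCK- refed libraries. The groups were far apart (fold 27.3, log2 difference 4.77, SE 0.22, adjusted p = 1.38e-09). Syt13, a synaptotagmin that does not bind calcium, was at 569, 317 and 476 in the CCK+ fasted libraries of mice 1, 2 and 3, 591, 712 and 758 in the CCK+ refed, 8.87, 12.2 and 12.3 in the CCK- fasted and 7.77, 5.56 and 5.96 in the CCK- refed libraries. It had the largest fold of this role, 58.5 (log2 difference 5.87, SE 0.20, adjusted p = 8.05e-11). Doc2b, a soluble sensor related to the synaptotagmins, was at 151, 37.6 and 71.8 in the CCK+ fasted libraries of mice 1, 2 and 3, 91.2, 139 and 235 in the CCK+ refed, 3.33, 6.07 and 3.35 in the CCK- fasted and 1.11, 4.63 and 5.96 in the CCK- refed libraries, again without overlap (fold 22.1, log2 difference 4.47, SE 0.42, adjusted p = 1.77e-06). Syt5 was at 113 to 290.0 in CCK+ and 12.03 to 32.9 in CCK- libraries (log2 difference 3.25), Syt14 at 29.9 to 100.5 in CCK+ and 1.09 to 13.8 in CCK- libraries (3.85) and Syt11 at 239.8 to 400.4 in CCK+ and 90.5 to 137 in CCK- libraries (1.31). Syt1, the fast sensor of synapses, was low, at 0, 9.59 and 8.64 in the CCK+ fasted and 8.55, 11.03 and 5.46 in the CCK+ refed libraries, and it was listed at 0 in all 6 CCK- libraries (adjusted p = 9.94e-04). Its call was lost in the fasted libraries alone. Syt4 was not called and was at most 0.957 in any library.

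Of the 9 Rab GTPases and effectors, 6 were higher. Rab3c, of the Rab3 family that sits on secretory vesicles, was at 974.9, 327 and 639 in the CCK+ fasted libraries of mice 1, 2 and 3, 958, 1311 and 1401 in the CCK+ refed, 17.2, 23.8 and 29.2 in the CCK- fasted and 32.1, 44.9 and 54.8 in the CCK- refed libraries. It did not overlap between populations (fold 26.1, log2 difference 4.70, SE 0.24, adjusted p = 4.75e-09). Rab3b was at 94.7, 33.9 and 63.2 in the CCK+ fasted libraries of mice 1, 2 and 3, 50.2, 85.6 and 101 in the CCK+ refed, 0, 0 and 0 in the CCK- fasted and 0, 7.81 and 1.43 in the CCK- refed libraries. It was listed at 0 in 4 of the 6 CCK- libraries (log2 difference 5.35, SE 0.51, adjusted p = 1.83e-06). Rph3al, or Noc2, a Rab3 and Rab27 effector on hormone granules, was at 261, 163 and 225 in the CCK+ fasted libraries of mice 1, 2 and 3, 229, 346 and 269.9 in the CCK+ refed, 34.8, 30.7 and 26.7 in the CCK- fasted and 43.3, 39.95 and 34.3 in the CCK- refed libraries, with no overlap (fold 6.86, log2 difference 2.78, SE 0.18, adjusted p = 3.82e-08). Rab3d was at 174 to 460.4 in CCK+ and 39.7 to 57.1 in CCK- libraries (log2 difference 2.66) and Rab27a, which docks granules, at 159 to 247 in CCK+ and 56.7 to 118 in CCK- libraries (1.20). Rab3a was at 24.5 to 66.6 in CCK+ and 5.81 to 27.2 in CCK- libraries (1.53), so that its groups overlapped, and its call was lost in the refed libraries alone and with quantile normalization. Rab27b was not called at 39.1 to 116 in CCK+ and 69.5 to 104.8 in CCK- libraries, nor were the Rab27 effectors Sytl2 (141 to 318 in CCK+ and 125 to 261 in CCK- libraries) and Sytl4, or granuphilin (4.99 to 15.6 in CCK+ and 11.1 to 25.98 in CCK- libraries). The 4 Rab3 genes were thus all higher, while of the Rab27 genes and synaptotagmin-like effectors only Rab27a passed.

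Of the 5 vesicle membrane proteins, 4 were higher. Syp (ENSMUSG00000031144, chrX:7638580-7653256), or synaptophysin, a membrane protein of small clear vesicles, was at 1260, 612 and 681 in the CCK+ fasted libraries of mice 1, 2 and 3, 1062, 1503 and 1353 in the CCK+ refed, 7.58, 12.9 and 14.2 in the CCK- fasted and 13.9, 15.4 and 13.1 in the CCK- refed libraries. Its fold was 75.4 and its libraries were far from overlap (log2 difference 6.24, SE 0.21, adjusted p = 8.05e-11). The synapsins tether vesicles to the cytoskeleton. Syn1, whose promoter is printed above, was at 93.3, 55.9 and 57.5 in the CCK+ fasted libraries of mice 1, 2 and 3, 141, 155 and 157 in the CCK+ refed, 3.33, 0 and 3.35 in the CCK- fasted and 2.22, 3.71 and 1.49 in the CCK- refed libraries (fold 33.99, log2 difference 5.09, SE 0.41, adjusted p = 3.39e-07). Syn2 was at 138, 38.8 and 90.04 in the CCK+ fasted libraries of mice 1, 2 and 3, 152, 199 and 286 in the CCK+ refed, 6.96, 3.34 and 2.90 in the CCK- fasted and 2.71, 4.02 and 0 in the CCK- refed libraries (fold 34.8, log2 difference 5.12, SE 0.45, adjusted p = 8.15e-07). Both synapsins were near 0 in CCK- cells. Sv2a, a vesicle glycoprotein, was at 3.36 to 31.4 in CCK+ libraries and was listed at 0 in all CCK- libraries (adjusted p = 1.02e-05), and Sv2b was not called at 0 to 10.4 in CCK+ and 0 to 1.06 in CCK- libraries.

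Of the 4 priming proteins, 3 were higher. Unc13a (ENSMUSG00000034799, chr8:71624125-71671774), or Munc13-1, which opens syntaxin so that SNARE complexes can form, was at 562, 175 and 285 in the CCK+ fasted libraries of mice 1, 2 and 3, 366, 694 and 609.7 in the CCK+ refed, 0.524, 1.72 and 2.63 in the CCK- fasted and 2.10, 6.65 and 3.70 in the CCK- refed libraries. It had the largest fold of all 48 genes, 118 (log2 difference 6.88, SE 0.35, adjusted p = 4.43e-09). Its relative Unc13b was at 397, 251 and 378 in the CCK+ fasted libraries of mice 1, 2 and 3, 436, 595 and 557 in the CCK+ refed, 200.1, 174 and 227 in the CCK- fasted and 220.5, 243 and 204 in the CCK- refed libraries. The populations did not overlap, but both held it (fold 1.99, log2 difference 0.99, SE 0.14, adjusted p = 8.29e-05). Cadps, or CAPS1, which primes dense-core granules, was at 894, 188 and 444 in the CCK+ fasted libraries of mice 1, 2 and 3, 478, 825 and 711 in the CCK+ refed, 8.64, 13.7 and 11.7 in the CCK- fasted and 3.99, 5.66 and 12.7 in the CCK- refed libraries, with no overlap (fold 54.5, log2 difference 5.77, SE 0.35, adjusted p = 2.24e-08). Cadps2, by contrast, was at 159 to 204 in CCK+ and 183 to 237 in CCK- libraries and was not called (adjusted p = 0.188). In this role the members with a large difference were Unc13a and Cadps, and their relatives Unc13b and Cadps2 were present in both populations.

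Of the 8 active zone scaffold genes, 3 were higher. Pclo (ENSMUSG00000061601, chr5:14514906-14863465), or piccolo, a giant scaffold of the nerve terminal, was at 2258, 816 and 1514 in the CCK+ fasted libraries of mice 1, 2 and 3, 1488, 1869 and 1625 in the CCK+ refed, 19.5, 16.03 and 17.7 in the CCK- fasted and 33.6, 26.2 and 23.6 in the CCK- refed libraries. The fold was 66.2 and the groups did not overlap (log2 difference 6.05, SE 0.21, adjusted p = 9.78e-11). Rimbp2, which links scaffolds to calcium channels, was at 1239, 381 and 1020 in the CCK+ fasted libraries of mice 1, 2 and 3, 859, 1241 and 1359 in the CCK+ refed, 46.2, 48.9 and 59.5 in the CCK- fasted and 62.8, 62.5 and 111 in the CCK- refed libraries (fold 14.9, log2 difference 3.90, SE 0.26, adjusted p = 5.82e-08). Every CCK+ library was above every CCK- library. Rims2, a RIM protein that binds Rab3 and calcium channels, was at 361, 84.1 and 368 in the CCK+ fasted libraries of mice 1, 2 and 3, 268, 359.6 and 324 in the CCK+ refed, 36.8, 3.02 and 41.4 in the CCK- fasted and 53.4, 94.2 and 203 in the CCK- refed libraries. Here the CCK- refed library of mouse 3 lay above the CCK+ fasted library of mouse 2, so the groups overlapped (fold 6.12, log2 difference 2.61, SE 0.55, adjusted p = 0.00187), and the call was lost in the refed libraries alone. The other 5 were not called. Bsn, or bassoon, was at 83.2 to 126 in CCK+ and 38.7 to 121 in CCK- libraries and Ppfia3, a liprin, at 15.6 to 52.5 in CCK+ and 3.34 to 49.1 in CCK- libraries. Rims1, Erc2 and Ppfia2 were at most 10.5 in any library, and the groups of each overlapped.

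**Figure D2:**
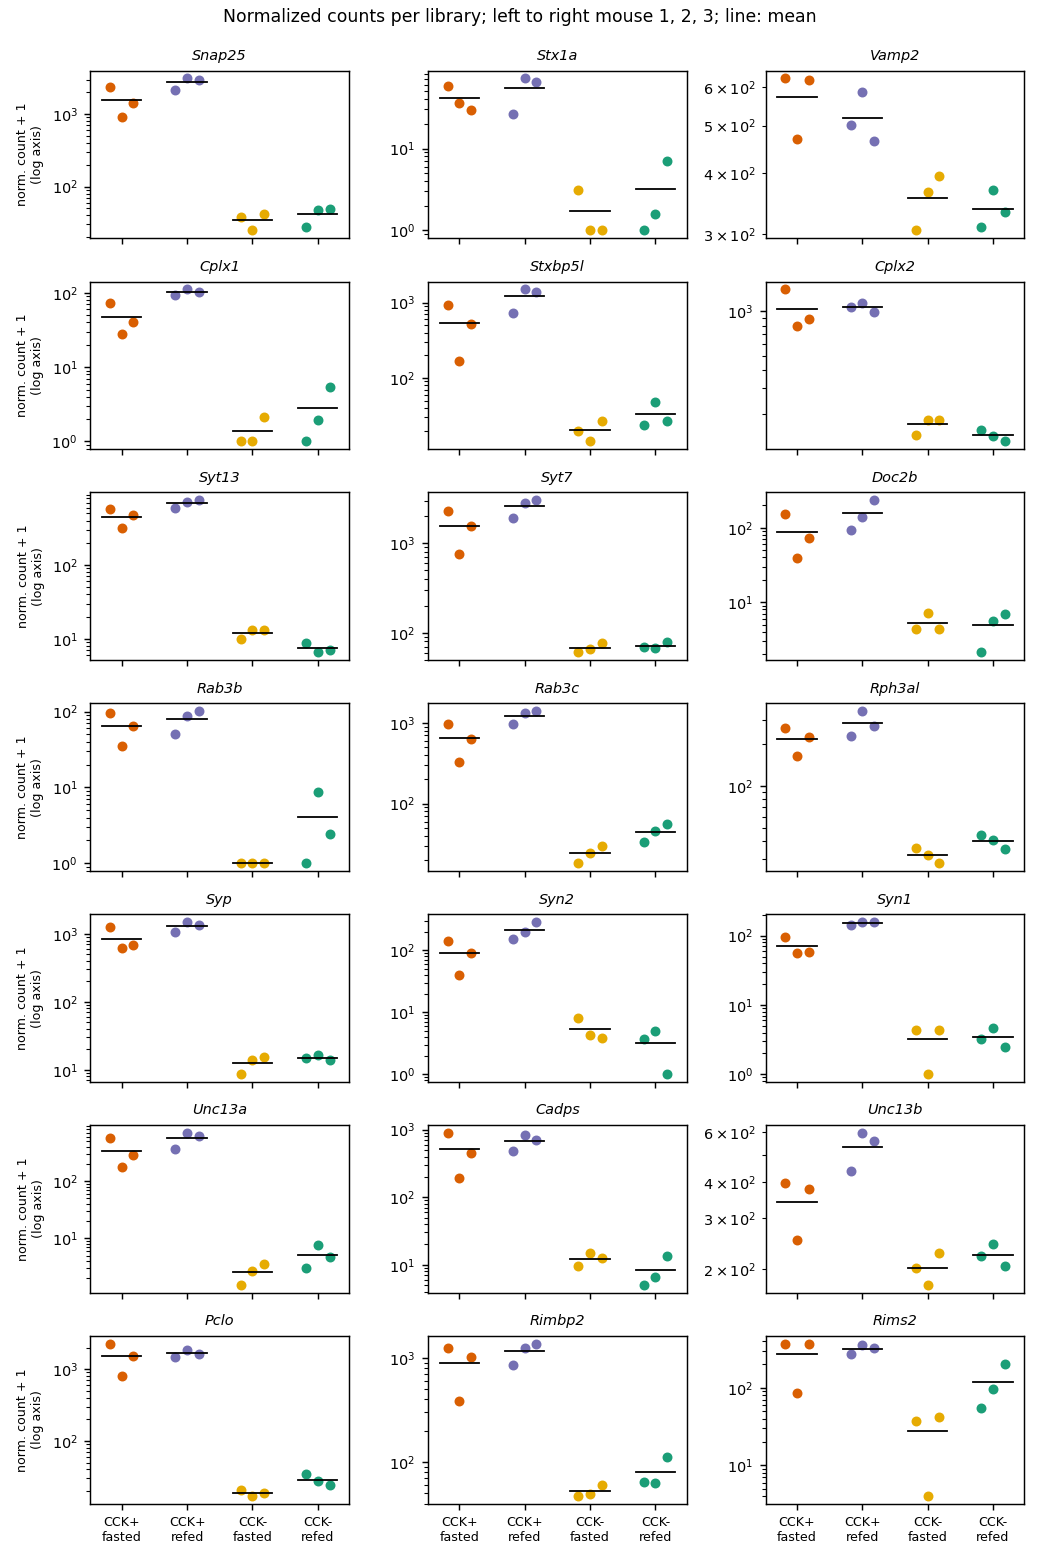
Normalized count plus 1 (vertical axis, log scale, different range in each panel) in each of the 12 libraries for the 3 called genes of each role with the largest difference; points run from mouse 1 to mouse 3 within a group and black lines are group means. CCK+ points lie above CCK- points in every panel apart from Rims2; in the panels of Snap25, Stxbp5l and Cadps, among others, the CCK+ fasted point of mouse 2 is the lowest of the 6.

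The CCK+ fasted library of mouse 2 was the lowest of the 6 CCK+ libraries for 24 of the 29 higher genes, at a median of 0.511 of the mean of the 6. This is the library with the lowest EEC marker sum, 63970, and the part of that sum in the result was not tested. Leaving out any 1 of the 12 libraries gave 29 to 30 higher genes. Without this library Nsf (log2 difference -0.39, adjusted p = 0.0109) and Snap23 (-0.54, adjusted p = 0.00171) joined Vamp3 as lower. In the fasted libraries alone 28 of the 48 genes were called higher and 1 lower, against 11.2% and 7.05% of all genes. In the refed libraries alone it was 27 and 1, against 15.3% and 10.6%. Of the 30 called genes, 26 kept their call under every alternative scaling, pseudocount, filter, block and subset of libraries in which they were fitted, and the exceptions were Vamp3, Rab3a, Syt1 and Rims2.

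Of 91 further genes of the same machinery, 82 were listed in the bulk table. In CCK+ cells 21 were higher and 9 lower, a share higher of 25.6%, near the 19.6% of all genes. The 3 with the largest positive difference were Sv2c, Apba1 and Nlgn2. Sv2c, a relative of Sv2a, was at 791, 311 and 412 (CCK+ fasted), 542, 646 and 742 (CCK+ refed), 5.52, 10.9 and 11.1 (CCK- fasted) and 7.74, 6.46 and 7.42 (CCK- refed) (fold 61.03, log2 difference 5.93, SE 0.25, adjusted p = 5.61e-10). Apba1, or Mint1, an adaptor that binds Munc18, was at 40.5 to 120.0 in CCK+ and 1.06 to 10.4 in CCK- libraries (log2 difference 4.72, adjusted p = 1.18e-06). Nlgn2, a synaptic adhesion protein, was at 50.01 to 215 in CCK+ and 2.24 to 14.98 in CCK- libraries (4.22, adjusted p = 2.94e-07). All 3 were without overlap. The lower genes with the largest differences were Stx12, an endosomal syntaxin, at 888 to 1463 in CCK+ and 1997 to 2664 in CCK- libraries (-1.13, adjusted p = 7.22e-06), Exph5, a Rab27 effector, at 394 to 518 in CCK+ and 899 to 1097 in CCK- libraries (-1.11, adjusted p = 7.82e-07), and Brsk1, a kinase, at 12.04 to 48.5 in CCK+ and 38.2 to 100.2 in CCK- libraries (-1.0, adjusted p = 0.0394). The call of Brsk1 was lost in 8 of 12 fits that left out a library. Syt8 had a larger difference, -1.66, but was not called (adjusted p = 0.0567). With libraries scaled to the same sum, 35 of the 82 genes were higher and 3 lower, and with quantile normalization 14 were lower. The median log2 difference of all genes was 0.35 with the same sum and -0.14 with quantile normalization, against 0.09 as reported. The shares of all genes called under these scalings are not given here.

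The comparison of refed with fasted mice asks whether feeding state changed the machinery. In CCK+ cells none of the 48 genes was called by limma, against 2.55% of all genes. At an unadjusted p under 0.05 there were 15, or 31.2%, 13 of them with higher values in refed mice, against 16.9% of all genes. The estimates of 38 of the 48 genes were above 0 with a median of 0.44 on the log2 scale, against a median of 0.008 over all genes. Without the CCK+ fasted library of mouse 2 the median was 0.32, 33 estimates were above 0 and 7 genes were at an unadjusted p under 0.05. The median over all genes was then 0. How many of all genes had estimates above 0 was not counted. The EEC marker sums were 144400, 63970 and 105000 in the CCK+ fasted and 172200, 235200 and 213000 in the CCK+ refed libraries, and Chga, an EEC granule protein, had an estimate of 0.91 (adjusted p = 0.142). The part of these sums in the estimates was not tested.

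The lowest adjusted p among the 48 genes was 0.108. Rab27b was at 79.4, 39.1 and 67.6 in the CCK+ fasted and 101, 109 and 116 in the CCK+ refed libraries (log2 difference 0.86, 95% interval 0.30 to 1.42). Rab3d was at 316, 174 and 230.2 against 394, 460.4 and 366 (0.79, 0.26 to 1.33). Without the CCK+ fasted library of mouse 1 these were called, Rab27b at 1.07 (adjusted p = 0.0398) and Rab3d at 1.01 (adjusted p = 0.0400). Unc13b was at 397, 251 and 378 against 436, 595 and 557 (0.65, 0.21 to 1.08). The intervals of Rab3c (0.30 to 1.77), Stxbp5l (0.32 to 2.50), Snap25 (0.20 to 1.61) and Syt7 (0.20 to 1.52) reach from small to more than 2-fold differences, so that a difference was neither called nor bounded close to 0. Those of Vamp3 (-0.27 to 0.27) and Cplx2 (-0.35 to 0.52) were narrower and lay on both sides of 0. Among the vesicle SNAREs Vamp8 had an estimate of -0.45 (interval -0.87 to -0.04) in CCK+ cells.

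In CCK- cells none of the 48 genes was called either, against 1.23% of all genes. At an unadjusted p under 0.05 there were 6 (12.5%, against 12% of all genes). The median estimate was 0.12, against 0 over all genes. The largest estimate was that of Rims2, at 36.8, 3.02 and 41.4 in the CCK- fasted and 53.4, 94.2 and 203 in the CCK- refed libraries (2.45, interval 0.78 to 4.12, adjusted p = 0.172). Vamp8 had an estimate of -0.61 here (interval -1.02 to -0.19, adjusted p = 0.172). The difference of the refeeding effect between the populations was called in none of the 48 genes, against 0.00454% of all genes (1 gene), with 5 at an unadjusted p under 0.05 (10.4%, against 6.25% of all genes). The lowest was Syt13, with a difference of 1.33 (unadjusted p = 0.00417, adjusted p = 0.636). None of the 82 other genes of the machinery was called in any of these 3 comparisons.

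**Figure D3:**
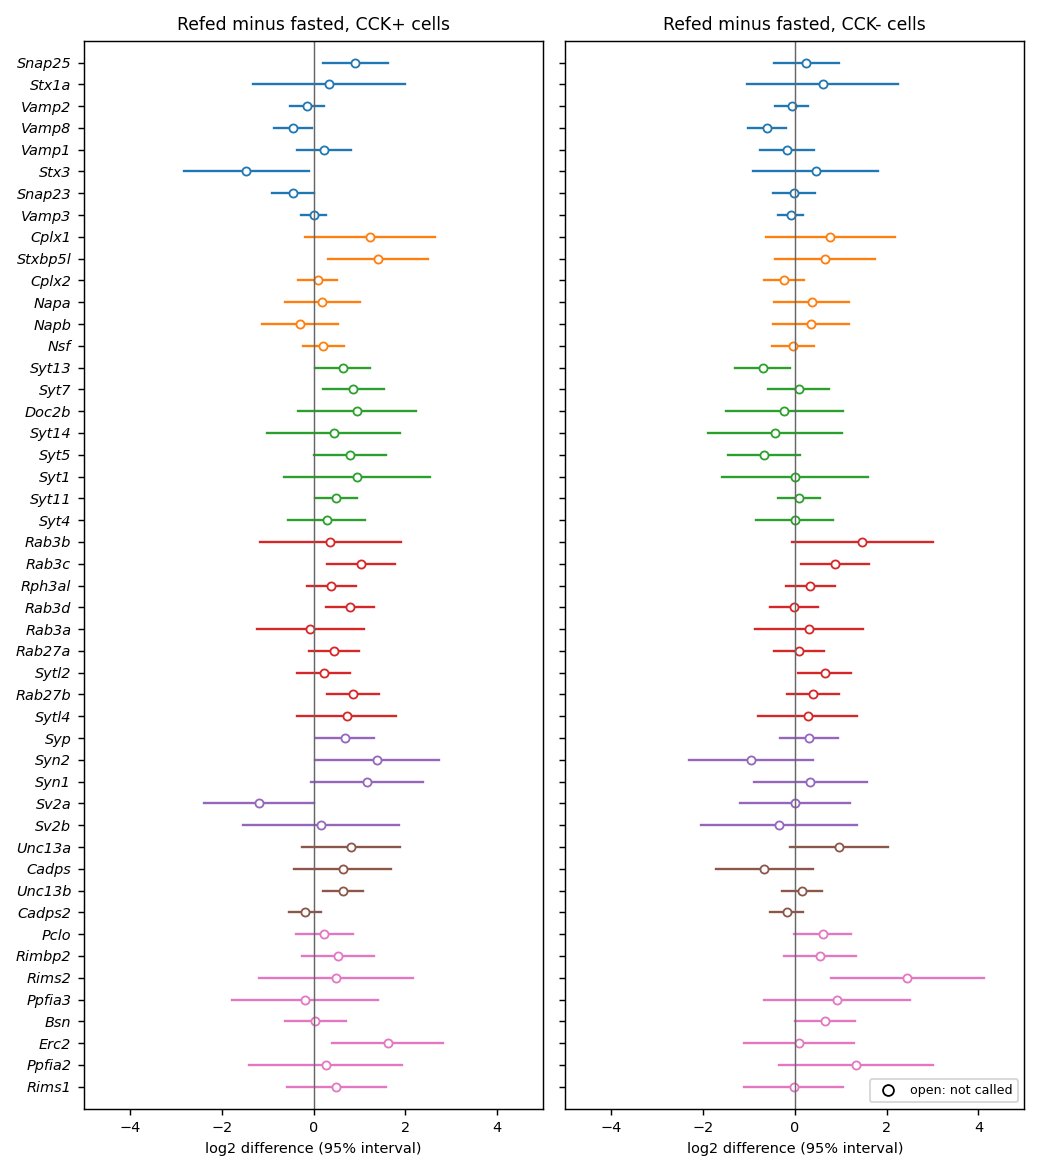
Log2 difference between refed and fasted mice (horizontal axis, 3 libraries each) with 95% intervals for the 48 genes in CCK+ cells (left) and CCK- cells (right), coloured by role; open points did not pass an adjusted p of 0.05. All points are open, and 38 of 48 in CCK+ cells are above 0.

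The droplet library divides the lineage by hormone. Of 475960 barcodes with a UMI (unique molecular identifier, 1 counted molecule), 9451 had over 1000 genes and under 10% mitochondrial UMIs. Cells with at least 500 UMIs of Cck per 10000 were called Cck-high (779 cells), and Gip-high (133), Ghrl-high (134) and Sst-high (35) cells were defined by the same limit. Tph1-high cells had at least 10 UMIs of Tph1 per 10000 (2454 cells). Barcodes of 1 to 100 UMIs, which hold free RNA, had 6.15 UMIs of Tph1 and 111 of Cck per 10000. The Tph1 limit was thus nearer to its free RNA level than the Cck limit was. Cells past more than 1 limit (524, most often Cck and Tph1) were kept apart, which leaves 5392 cells as the rest. Of these, 3836 passed a limit for goblet markers given below, so the rest was not EECs alone. In the rest 290 cells held no UMI of Chga, Chgb or Neurod1, genes that free RNA also held. Doublets were neither called nor removed. The depth of Tph1-high cells was low, at a median of 3208 UMIs, and 31.6% of them were over the limit that Cell Ranger would set, against 6253 UMIs and 90.0% in Cck-high cells and 7471.5 UMIs in the rest. Hormone genes took 31.4% of UMIs in Cck-high, 6.62% in Tph1-high and 0.733% in the rest. Levels are UMIs per 10000 UMIs of a group, and their intervals cover counting error only.

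Against the rest, 25 of 43 genes with enough UMIs were at least 2-fold higher in Cck-high cells, a fold that 20.0% of all genes passed. In Tph1-high cells it was 28 of 44 against 29.1%. In Gip-high cells it was 17 of 42 against 8.89%, in Ghrl-high cells 16 of 42 against 10.0% and in the 35 Sst-high cells 7 of 42 against 4.72%. A gene was counted only with at least 10 UMIs in the group where it was higher, so that the counts of the smaller groups also follow their cell number and depth. With cells thinned to 2000 UMIs the count was 6 in Gip-high cells, and over the alternatives it was 1 to 13 in Sst-high cells. Snap25, Syt7, Syt5, Syp, Cplx2, Rph3al and Pclo were counted in all 5 groups. Stx1a, Syt11, Syt13, Unc13a, Cadps, Rimbp2 and Rims2 also had ratios over 2 in all 5 groups, but had under 10 UMIs in Sst-high cells. In the other direction 4 of 43 genes were at least 2-fold lower in Cck-high cells than in the rest (Rab27a, Rab27b, Sytl2 and Sytl4), against 13.6% of all genes, and none were when hormone genes were left out of the totals. Of these, Rab27a went the other way in bulk, where it was called higher in CCK+ cells (log2 difference 1.20). Vamp3, called lower in bulk, had a ratio of 1.27 in Cck-high cells. The rest of this lineage is not the same comparison group as the bulk CCK- cells, and the reason for these differences was not tested.

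**Figure D4:**
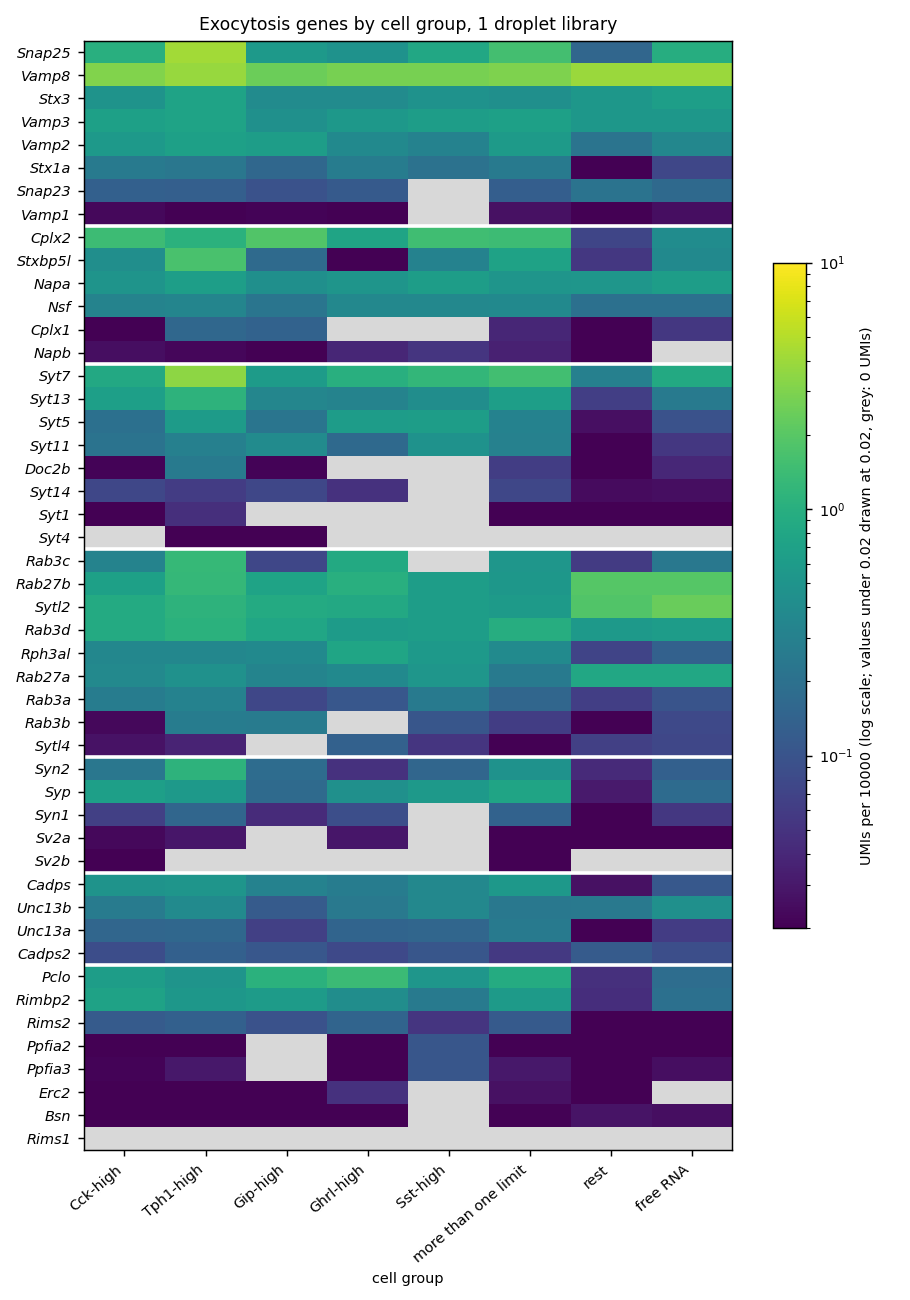
Level of each gene (colour, UMIs per 10000, log scale, values under 0.02 drawn at 0.02, grey for no UMI) in the 7 cell groups of the droplet library and in barcodes of 1 to 100 UMIs, which hold free RNA; white lines separate the roles. Snap25 and Syt7 are brightest in Tph1-high cells (4.19 and 3.48), Vamp8 is bright in every column and Rims1 is grey throughout.

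Compared directly, a comparison chosen after seeing the data, 11 of 44 genes were at least 2-fold higher in Tph1-high than in Cck-high cells, against 13.4% of all genes, and none were 2-fold lower, against 5.17%. Snap25 was at 4.19 (95% interval 4.06 to 4.32) in Tph1-high and 1.01 (95% interval 0.929 to 1.10) in Cck-high cells, 4.14-fold (95% interval 3.78 to 4.54) higher in the former. Syt7 was at 3.48 and 0.860, Stxbp5l at 1.69 and 0.431, Rab3c at 1.3 and 0.323 and Syn2 at 1.12 and 0.237. Their ratios were 4.05, 3.92, 4.01 and 4.73, so a sensor, a SNARE inhibitor, a Rab and a synapsin all stood about as far apart as Snap25. The largest ratios among genes with at least 10 UMIs in both groups were those of Doc2b (12.3-fold, 95% interval 6.73 to 24.9), Rab3b (11.7-fold, 95% interval 6.60 to 23.0) and Cplx1 (8.27-fold, 95% interval 4.37 to 17.6), which were nearly undetected in Cck-high cells at 0.0212, 0.0231 and 0.0192, from 11, 12 and 10 UMIs. Over the alternatives their lowest ratios were 6.8, 7.5 and 4. Syt5 (3.09-fold) and Syn1 (2.35-fold) were also past the limit. Syt1 had 43 UMIs in Tph1-high and 1 in Cck-high cells, a ratio of 23.9 with an interval of 4.06 to 964.

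All other genes with at least 10 UMIs in either group were within 2-fold. Syt4, Sv2b, Rims1 and Erc2 had too few UMIs to be compared. The ratio of Tph1-high to Cck-high was 0.845 for Syp, 0.752 for Cplx2, 0.749 for Rimbp2 and 0.777 for Pclo. For Unc13a it was 1.01, for Cadps 1.05, for Rph3al 0.986 and for Stx1a 0.925. The 11 genes past the limit were SNARE, regulator, sensor, Rab and synapsin genes, and no priming or scaffold gene was among them. Those 2 roles hold only 4 and 8 genes, and 13.4% of all genes passed the limit. A difference between roles was not tested. With hormone genes left out of the totals, a choice made after seeing the data, the ratio was 3.03 for Snap25 and 2.98 for Syt7, and in cells over the Cell Ranger limit it was 3.11 and 3.08, while that of Syn1 was 1.59 there and no longer past the limit.

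**Figure D5:**
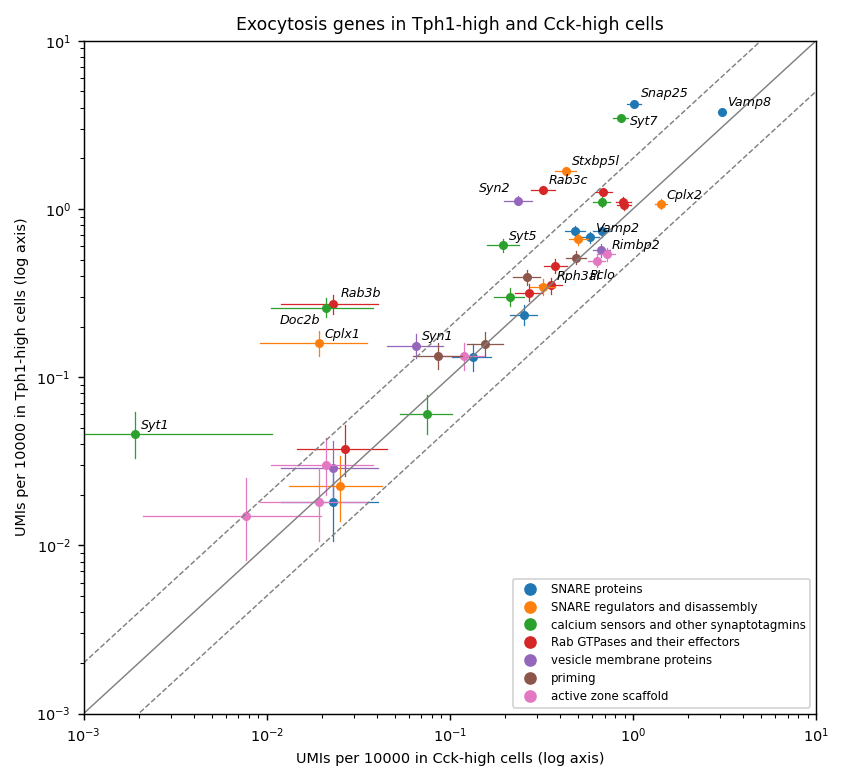
Level of each gene in Tph1-high cells (vertical axis) against Cck-high cells (horizontal axis), both in UMIs per 10000 on log axes, with 95% counting intervals and colours by role; the solid line is equality and the dashed lines are 2-fold. Snap25, Syt7, Stxbp5l, Rab3c, Syn2, Syt5, Syn1, Rab3b, Doc2b, Cplx1 and Syt1 lie above the upper dashed line, no gene drawn (at least 10 UMIs in either group) lies below the lower one, and the lower end of the Syt1 interval runs past the left edge.

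A UMI of Snap25 was found in 73.7% (95% interval 71.9 to 75.4%) of Tph1-high cells, 45.3% (95% interval 41.8 to 48.9%) of Cck-high cells and 9.48% of the rest. With every cell thinned to 2000 UMIs, which left out 58 Tph1-high cells and none of the other groups, the shares were 56.6%, 18.5% and 3.23%. Syt7 was found in 67.5%, 39.8% and 20.5% of cells, or 50.1%, 16.2% and 6.64% after thinning. Free RNA held Snap25 at 0.956 and Syt7 at 0.867 UMIs per 10000, close to their Cck-high levels. The rest was at 0.156 and 0.296. The share of free RNA in each group was not estimated, and its part in these levels was not tested.

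The other hormone groups had their own combinations, with fewer cells and wider intervals. Pclo was at 1.39 (95% interval 1.17 to 1.64) in Ghrl-high and 1.07 (95% interval 0.873 to 1.31) in Gip-high cells, above its 0.635 in Cck-high and 0.493 in Tph1-high cells. Cplx2 was at 1.85 in Gip-high cells and 0.753 in Ghrl-high cells. Rab3c and Rab3b did not run together. Rab3c was at 0.870 (95% interval 0.699 to 1.07) in Ghrl-high but 0.0751 (95% interval 0.0302 to 0.155) in Gip-high cells, whereas Rab3b was at 0.268 (95% interval 0.174 to 0.396) in Gip-high cells and had no UMI in the 134 Ghrl-high cells. Cplx1 followed Rab3b, at 0.140 in Gip-high and no UMI in Ghrl-high cells. A count of 0 in 134 cells limits the share of cells with a UMI to 2.24%, and not the share that expresses the gene. Stxbp5l was at 0.172 in Gip-high and 0.0196 in Ghrl-high cells, against 1.69 in Tph1-high cells. Rph3al was highest in Ghrl-high cells, at 0.763 (95% interval 0.603 to 0.952), against 0.356 in Cck-high cells.

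UMI counts also order related genes within a cell group, though capture of each 3′ end can differ. In Tph1-high cells Snap25 (4.19) stood far above Snap23 (0.131), whereas in the rest Snap23 (0.214, 95% interval 0.201 to 0.228) was above Snap25 (0.156, 95% interval 0.145 to 0.168). Among the vesicle SNAREs Vamp8 was the most abundant in every group, at 3.05 in Cck-high, 3.79 in Tph1-high and 3.91 in the rest, above Vamp2 (0.583 in Cck-high) and Vamp3 (0.677). Cplx2 was above Cplx1 in all groups, and Syt7 was the most abundant synaptotagmin in all 5 hormone groups. Unc13b (0.263, 95% interval 0.221 to 0.311) was above Unc13a (0.156, 95% interval 0.124 to 0.194) in Cck-high cells. Rab27b (1.94), Sytl2 (1.84) and Rab27a (0.840) were highest in the rest. Within it 3836 cells with goblet markers (at least 150 UMIs of Muc2 and Clca1 per 10000, a limit chosen after seeing the data) held them at 2.92, 2.82 and 1.3. Rims1 had no UMI in any of the 9451 cells. This limits the share of cells with a UMI to 0.0317%, and not the share that expresses the gene. Bulk CCK+ libraries held Doc2b, Rab3b and Cplx1, which were low in Cck-high cells, and they also held Tph1 at 4994 to 21360. Which cells of the bulk sort gave these reads was not tested.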

How the data were processed

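Bulk values are DESeq2-normalized counts deposited by the authors, a signal that is not whole. Per the labels and methods, reads were trimmed (Trim Galore 0.6.7), quantified with Salmon 1.6.0 on GRCm39 transcripts, and summed per gene. The sums per library were 7061155 to 11371114. Of values up to 10, 53.8 to 66.4% were within 0.02 of whole multiples of a common step, too few to recover reads, so no count test was run. The droplet matrix holds counts of UMIs deposited by the authors (Cell Ranger 2.0.1, mm10), 1 library.

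From these, log2(value + 1) of all 22042 genes in the 12 libraries was fitted with limma 3.58.1 (R 4.3.3), empirical Bayes with a trend and 1 mean per group (8 residual degrees of freedom), with Benjamini-Hochberg adjustment over all genes and a threshold of 0.05. The script was tested on simulated data. Libraries with the same number within a feeding state were taken to come from the same mouse: their deviations from the group means correlated at 0.0773 to 0.124 across genes and those of other mice at no more than -0.0184. Deviations cancel out within a group of 3 libraries. Positive values for the same mouse therefore force negative ones for other mice, on average. Libraries of a population come from separate mice. The members and lists were chosen with earlier results of these data known. Every member is accounted for; values per library are given for the 3 called genes of each role with the largest absolute difference and for members that other values turn on, and of the other genes of the machinery the 3 largest differences in each direction are named. Members were matched by gene symbol in both tables.

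Droplet cells had over 1000 genes and under 10% mitochondrial UMIs, more cells than in the study's own count. Levels were summed per group with exact Poisson intervals, ratios with exact intervals, shares with exact binomial intervals (95%), and an upper limit of 3 counts for 0. Genes with at least 10 UMIs in either group were compared, and one was counted at 2-fold or more with at least 10 UMIs in the higher group. Python 3.11.15, numpy 2.4.6, scipy 1.17.1 and pandas 2.3.3 were used. Gene positions are RefSeq spans in GRCm38. Alternatives were mouse as a block, pseudocounts of 0.5 and 8, a mean of at least 10 normalized counts, quantile normalization, libraries scaled to the same sum, no trend, either feeding state alone and each library left out, and for droplets other limits, filters and totals. Levels were not compared between genes in bulk, which needs gene lengths. Some marker values are not reported here.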

Additional observations from a re-analysis of the deposited data

How the results depend on the processing

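The count of 29 members higher in CCK+ cells lay between 27 and 32 under all 22 alternatives, with no called member changing direction. The 1 lower member became 2 with mouse as a block and with a mean of at least 10 normalized counts, 5 with quantile normalization and 0 with libraries scaled to the same sum or a limit of 2-fold, and 1 to 3 when a library was left out, with 3 without the CCK+ fasted library of mouse 2. Members called in refed against fasted CCK+ cells were 0 to 2 when a library was left out. The other genes called higher were 35 with the same sum and 11 in fasted libraries alone, against 21, and those called lower were 14 with quantile normalization and 3 with the same sum or a limit of 2-fold, against 9. In fasted libraries alone the share called higher was 13.4% of these genes and 11.2% of all genes. As reported it was 25.6% and 19.6%. The median log2 difference of all genes was 0.09 as reported, -0.14 after quantile normalization and 0.35 with the same sum, and the cause of the other changes was not tested. The shares of all genes called under the other scalings, the block, the filter, the 2-fold limit and the left-out libraries are not given here. With mouse as a replicate block, 30 members were higher and 2 lower, with Napa and Snap23 gained, and it changed no other call of a member. In the droplet library, members at least 2-fold lower in Cck-high cells fell from 4 to 0 with hormone genes left out of the totals (chosen after seeing the data). Members higher in Gip-high cells were 6 with cells thinned, against 17. Those higher in the 35 Sst-high cells were 4 with a higher minimum of genes, 4 over the Cell Ranger limit, 3 with halved limits, 11 with doubled limits, 13 with cells of several limits kept and 1 with cells thinned, against 7. Of single genes, 17 values lost their call and 29 moved, and 804 stayed; no result changed sign while called. With 3 libraries a group and no read counts, depth limits the genes near 0.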
